A study of Homo sapiens with 8 samples.

Results

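The regions described here are accessible sites that lie close together in the genome but that the study's authors placed in different lists. The title of one list calls its sites opened by morphogens and closed by p63 (here "p63-closed sites"). The title of the other calls its sites opened by morphogens (here "opened sites"). A close pair is a p63-closed site and an opened site on the same autosome whose centres are at most 10000 bp apart. There were 522 such pairs, made of 485 of the 6037 p63-closed sites and 489 of the 8154 opened sites, or 974 of 14191 listed sites in all. Membership rests on position alone. By its name the p63-closed list was also opened by the morphogens, so the names alone give the partners of a close pair no opposite responses to morphogens. The labels attach that list to no day 0 sample, and the response of its sites to morphogens is not shown here.

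The lists come from ATAC-seq, in which a transposase cuts exposed DNA, of H9 human embryonic stem cells, an established line. Cells without p63 (p63-/-) were taken at day 7 of differentiation with 1 uM retinoic acid (RA) and 5 ng/ml BMP4. A line with an inducible transgene (TetO:Tp63+/-) was induced for 2 days with 2 ug/ml doxycycline and taken at day 0. Wild-type cells were taken at day 7 of the same RA and BMP4 treatment, and at day 0. Each of the 4 groups had 2 samples, and the day 7 cells are labelled surface ectoderm. The labels attach the p63-closed list to the p63-/- and wild-type samples of day 7, and the opened list to the wild-type samples of day 7 and day 0. Neither is attached to the induced line. They do not say whether samples of a group came from separate cultures, or how many clones the altered lines represent.

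Surface ectoderm is the simple epithelium from which epidermis arises. Retinoic acid acts through nuclear receptors that bind DNA, and BMP4 acts through receptors that activate SMAD proteins. p63, encoded by TP63, is a transcription factor of the p53 family that stratified epithelia need, and it can both activate and repress genes. Accessible sites away from gene starts are often enhancers. A gene can have several enhancers that respond to different factors.

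Each list gives a chromosome, start, end and numbered name for a site, with no count, score or value per sample. No difference between groups of cells could therefore be tested, the depth is unknown, and the direction in each list's name is the authors' own. No p-value is given. The 95% intervals are exact binomial ones, for a share directly and for a median through its order statistics. They cover counting error only and take no account of the fact that neighbouring sites tend to resemble each other. Positions are 1-based on hg19. No gene annotation of that build was used, so no site is assigned to a gene and the labelled cell type could not be checked against its markers.

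On the autosomes 8.08% of p63-closed sites (485 of 6005; 95% interval 7.40 to 8.79%) and 6.31% of opened sites (489 of 7753; 5.78 to 6.87%) belonged to a close pair. These sites covered 734 kb and 783 kb. Most had 1 partner. Among the p63-closed sites 451 had 1 opened partner, 31 had 2 and 3 had 3. Among the opened sites 457 had 1 p63-closed partner, 31 had 2 and 1 had 3. No other listed site lay between the centres of the partners in 486 of the 522 pairs.

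The closest pair was on chromosome 14. Its p63-closed site ran from 29371883 to 29372467 (585 bp) and its opened site from 29370769 to 29371508 (740 bp), so the centres were 1036 bp apart and the edges 374 bp apart. Chromosome 3 held the next closest pairs. One joined a p63-closed site from 55602823 to 55603881 to an opened site from 55604230 to 55604868, with centres 1197 bp apart. The other joined a p63-closed site from 73620195 to 73621242 to an opened site from 73621443 to 73622410, with centres 1208 bp apart and only 200 bp of DNA between the edges. In each of these pairs the numbers in the authors' site names were consecutive.

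The remaining 7 of the 10 closest pairs had centres 1268 to 1479 bp apart. On chromosome 7 the p63-closed site ran from 12424453 to 12425474 and the opened site from 12425887 to 12426577. On chromosome 2 both sites were 865 bp wide, the p63-closed one from 5990828 to 5991692 and the opened one from 5989466 to 5990330. On chromosome 13 the p63-closed site, from 85604380 to 85605047 (668 bp), and the opened site, from 85605825 to 85606425 (601 bp), were 777 bp apart at their edges, the widest gap among the 10. Each of these sites was narrower than the median close-pair member of its list.

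Chromosome 8 held a pair of the 10 with a p63-closed site from 81056504 to 81057294 and an opened site from 81057828 to 81058776, and another with a p63-closed site from 85705887 to 85707410 and an opened site from 85707541 to 85708609, only 130 bp away. On chromosome 11 the p63-closed site lay from 56889175 to 56890019 and the opened site from 56887763 to 56888542. The tenth pair, on chromosome 9, had the smallest gap between edges among these 10, 95 bp, with a p63-closed site of 1869 bp from 78231151 to 78233019 and an opened site of 899 bp from 78230157 to 78231055. All 10 pairs had consecutive numbers in their site names. The p63-closed site came first along the chromosome in 6 of the 10, and the opened site was the narrower in 7.

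**Figure D1:**
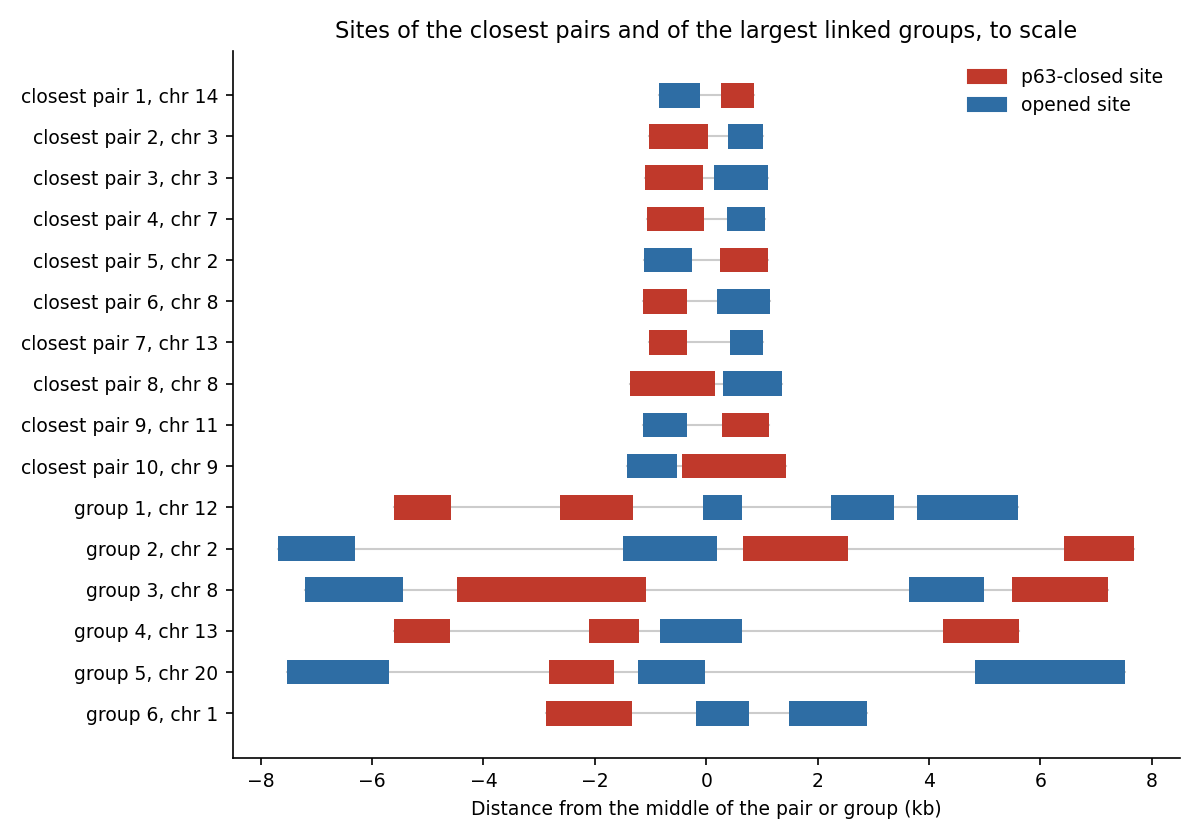
The 10 closest pairs and the 6 linked groups with the most sites, drawn to scale as distance in kb from the middle of each pair or group; red bars are p63-closed sites, blue bars are opened sites and grey lines join the sites of a row. The closest pairs show no common order of the lists, while the 5-site group on chromosome 12 has its p63-closed sites on one side and its opened sites on the other.

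Over all 522 pairs the centres were 5832 bp apart in the median (quartiles 3535 and 8024 bp; 95% interval of the median 5517 to 6059 bp), and the edges 4178 bp. Pairs with both sites in the same list, counted with the same limit, were set beside them. The 445 pairs of p63-closed sites had a median centre distance of 5138 bp (4457 to 5612 bp), and the 569 pairs of opened sites one of 5682 bp (5182 to 5961 bp). Edges less than 500 bp apart were found in 6.51% of mixed pairs (34 pairs), in 11.0% of pairs of p63-closed sites (49) and in 7.73% of pairs of opened sites (44). The share of near-touching sites was thus smallest in mixed pairs, though close to that in pairs of opened sites. No test of these differences was made.

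**Figure D2:**
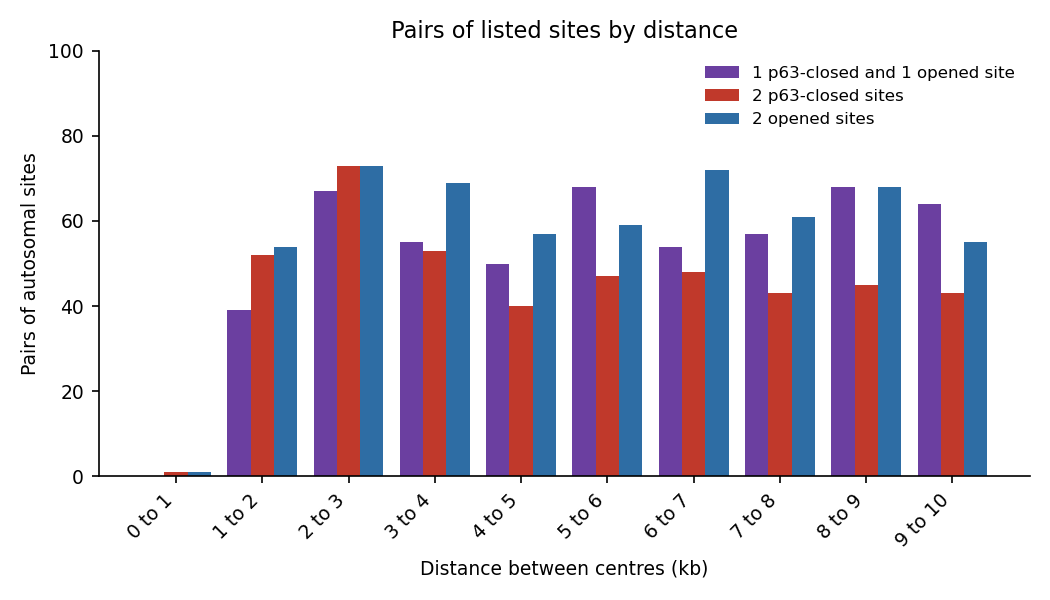
Number of pairs of autosomal listed sites (y axis) in each 1 kb bin of the distance between centres (x axis, kb), for mixed pairs (purple), pairs of p63-closed sites (red) and pairs of opened sites (blue). From 1 to 2 kb there were 39 mixed pairs, 52 pairs of p63-closed sites and 54 of opened sites; from 9 to 10 kb there were 64, 43 and 55.

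Mixed pairs tended to make up a smaller share at shorter distances, but the rise with distance was not steady. Over all pairs up to 10 kb apart the share was 34.0% (522 of 1536), about the same as at 10 to 20 kb. What share the sizes of the lists alone would give was not computed. Sites had a neighbour of their own list within 10 kb more often than one of the other list. Among p63-closed sites 8.08% had an opened site there, while 14.0% of members and 13.6% of the others had another p63-closed site. The opened list is nevertheless the longer, with 7753 against 6005 autosomal sites. Among opened sites 6.31% had a p63-closed site there, while 13.5% of members and 13.1% of the others had another opened site. Of all pairs of listed autosomal sites 1 to 2 kb apart, 26.9% were mixed (39 of 145; 95% interval 19.9 to 34.9%). Of all pairs up to 5 kb apart 30.8% were mixed (211 of 684; 27.4 to 34.5%), and of those 5 to 10 kb apart 36.5% (311 of 852; 33.3 to 39.8%). From 5 to 6 kb the share was 39.1% and from 6 to 7 kb it was 31.0%, with overlapping intervals. Beyond the limit it was 33.7% at 10 to 20 kb (477 of 1415 pairs), 38.5% at 50 to 100 kb (2013 of 5227) and 42.7% at 200 to 500 kb (10290 of 24092). One site can belong to many of these pairs, and the intervals, which treat pairs as independent, are therefore too narrow. On the autosomes no site of one list overlapped a site of the other, and the smallest gap between edges in a mixed pair was 47 bp. Whether the lists were made to exclude each other is not stated in the labels, and that bears on what a mixed pair and its share mean.

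**Figure D3:**
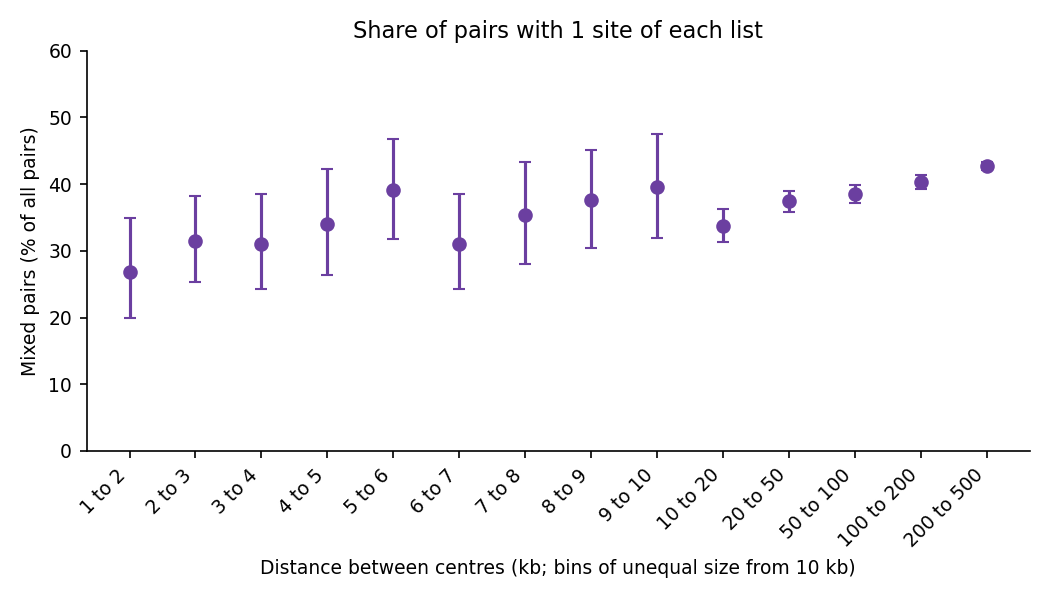
Mixed pairs as a percentage of all pairs of autosomal listed sites (y axis) by distance between centres (x axis, kb; bins widen from 10 kb); points are shares and bars exact 95% binomial intervals. The share was 26.9% at 1 to 2 kb, 33.7% at 10 to 20 kb and 42.7% at 200 to 500 kb.

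The limit of 10000 bp fell within a continuous range of distances. The 5 pairs just inside it had centres 9965 to 9991 bp apart and the 5 just outside 10010 to 10091 bp. The last pair inside was on chromosome 1, with a p63-closed site from 229335037 to 229336348 and an opened site from 229345036 to 229346331. The first pair outside was on chromosome 2, with a p63-closed site from 205189480 to 205190744 and an opened site from 205179338 to 205180865. There were 31 pairs from 9500 to 10000 bp and 29 from 10000 to 10500 bp.

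The order of the partners along the chromosome was close to even. The p63-closed site had the lower coordinate in 269 pairs and the opened site in 253, so the p63-closed site came first in 51.5% (95% interval 47.2 to 55.9%). This order is that of the reference strand and says nothing of the direction of any gene.

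Each site name holds a number that increases along its chromosome, with a break on chromosome 14. On chromosome 1 the numbers also jump past those of sites on chromosomes 3, 4, 5 and 6. Both lists were taken to share 1 numbered catalogue of regions. The catalogue itself was not analysed here, and the entries between sites are inferred from gaps in these numbers. Consecutive numbers were found in 109 of the 522 mixed pairs (20.9%), in 27.6% of pairs of p63-closed sites (123 of 445) and in 24.8% of pairs of opened sites (141 of 569). In the other 413 mixed pairs (79.1%; 95% interval 75.4 to 82.5%) at least 1 number lay between, with a median over all pairs of 2 and a maximum of 9. The distance between centres per step of the numbering had a median of 1721 bp in mixed pairs, 1695 bp in pairs of p63-closed sites and 1796 bp in pairs of opened sites. Some of these numbers belong to other listed sites; whether each of the rest stands for a region, and whether accessibility changed there, is unknown.

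Sites in close pairs were narrower than the other autosomal sites of their list. The p63-closed members had a median width of 1374 bp (95% interval 1312 to 1439 bp; range 457 to 4745 bp), against 1549 bp (1526 to 1567 bp) for the 5520 other p63-closed sites. The opened members had a median of 1472 bp (1419 to 1541 bp; range 522 to 4724 bp), against 1612 bp (1593 to 1628 bp) for the 7264 other opened sites. Sites under 1000 bp made up 20.4% of p63-closed members and 13.3% of other p63-closed sites. They made up 14.1% of opened members and 11.2% of other opened sites.

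Sites with a nearer partner tended to be narrower. Members with the nearest partner up to 2500 bp away had a median width of 1054 bp among p63-closed sites (n = 68) and 1350 bp among opened sites (n = 69). At 2500 to 5000 bp the medians were 1328 bp (n = 138) and 1378 bp (n = 138), and at 5000 to 7500 bp they were 1406 bp (n = 139) and 1578 bp (n = 138). With the nearest partner 7500 to 10000 bp away they were 1492 bp (n = 140) and 1560 bp (n = 144), so the opened sites were no wider there than in the bin before. Listed sites did not overlap, so centres a short distance apart leave less room for wide sites; the part of this in the difference was not tested. Nearness to a site of the same list went with narrower sites too. Sites outside close pairs that had a neighbour of their own list within 10000 bp had a median of 1450 bp among p63-closed sites (n = 748; 95% interval 1400 to 1507 bp) and 1494 bp among opened sites (n = 955; 1448 to 1547 bp). The intervals for members overlapped these in both lists, and narrowness is therefore not shown to be particular to mixed pairs.

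**Figure D4:**
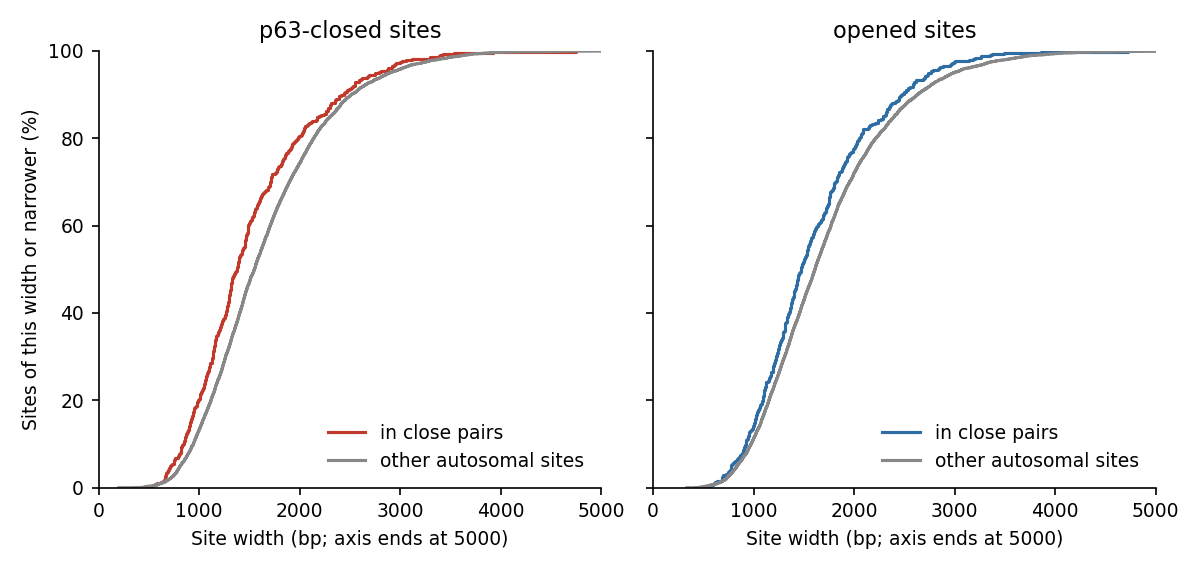
Cumulative share of sites (y axis, %) up to a given width (x axis, bp) for p63-closed sites (left) and opened sites (right); coloured lines are sites in close pairs and grey lines the other autosomal sites of the same list. The coloured lines lie left of the grey ones over most of the range, with medians of 1374 against 1549 bp and 1472 against 1612 bp.

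Within a pair the p63-closed site was the wider in 226 pairs and the opened site in 294, with 2 equal, so the p63-closed site was wider in 43.3% (95% interval 39.0 to 47.7%). The median difference, p63-closed minus opened, was -89.5 bp (-166 to -30 bp), within a wide spread (quartiles -582 and 410 bp). Among the other autosomal sites the p63-closed ones were narrower too, with a median of 1549 bp against 1612 bp for opened sites. The difference is therefore not shown to be particular to close pairs. The widths of partners were only weakly related (Pearson's r = 0.092 and Spearman's rho = 0.092 over 522 pairs, which share sites and the limit on distance). The width of one partner thus said little of the width of the other.

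The widest p63-closed member, 4745 bp, lay on chromosome 8 from 34114654 to 34119398, with an opened partner of 1195 bp from 34124351 to 34125545. The next were 3926 bp on chromosome 5, from 102742341 to 102746266, and 3543 bp on chromosome 4, from 57100069 to 57103611. The chromosome 5 site was 783 bp from its opened partner of 1192 bp, which ran from 102747050 to 102748241. The widest opened member, 4724 bp, was also on chromosome 8, from 97532501 to 97537224, with its p63-closed partner of 1699 bp from 97543908 to 97545606. It was followed by opened members of 3858 bp on chromosome 5, from 151327021 to 151330878, and 3650 bp on chromosome 18, from 55363060 to 55366709.

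Close pairs that shared a site were joined into linked groups. The 522 pairs formed 454 groups, of which 394 were single pairs, 55 had 3 sites, 4 had 4 and 1 had 5. The groups had a median span of 7757 bp (1699 to 19363 bp) and spanned 3571 kb in all. Of the 55 groups of 3, 26 had 2 p63-closed sites and 29 had 2 opened sites. The site of the other list stood in the middle in 28 of them and at a side in 27. A single p63-closed site lay between opened sites in 16 groups, and a single opened site between p63-closed sites in 12.

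The group with the most sites was on chromosome 12, from 20114585 to 20125792. Its p63-closed sites lay from 20114585 to 20115613 and from 20117564 to 20118866. They were followed by opened sites from 20120123 to 20120823, from 20122435 to 20123549 and from 20123977 to 20125792. Each p63-closed site was within 10000 bp of all 3 opened sites, so this group gave 6 of the 522 pairs. The lists changed once along these 5 sites.

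Such a single change also marked the group on chromosome 2. There opened sites from 150011568 to 150012944 and from 150017762 to 150019435 preceded p63-closed sites from 150019917 to 150021801 and from 150025673 to 150026929. On chromosome 8, by contrast, the lists alternated: an opened site from 37400219 to 37401971, a p63-closed site of 3398 bp from 37402939 to 37406336, an opened site from 37411061 to 37412410 and a p63-closed site from 37412916 to 37414625. These 4 sites had consecutive numbers in their names.

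On chromosome 13 the opened site from 53679242 to 53680712 had p63-closed sites on both sides, from 53674459 to 53675467 and 53677961 to 53678869 before it and from 53684329 to 53685684 after it. On chromosome 20 the p63-closed site from 19412476 to 19413659 stood among opened sites, from 19407789 to 19409620, 19414076 to 19415293 and 19420130 to 19422827. The first of the groups of 3 by position, on chromosome 1, had a p63-closed site from 94566309 to 94567852 before opened sites from 94569011 to 94569961 and 94570677 to 94572075. The lists were thus interleaved in some groups and side by side in others.

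The listed sites next to a close pair were then examined, to see whether such pairs lay where a stretch of one list met a stretch of the other. Of 485 directly neighbouring close pairs with a listed site on both sides, 119 (24.5%; 95% interval 20.8 to 28.6%) had on each side a site of the same list as the partner it adjoined. In 106 (21.9%; 18.3 to 25.8%) the lists alternated over all 4 sites. Both flanking sites were p63-closed in 119 pairs (24.5%) and opened in 141 (29.1%). Among the 4904 mixed neighbours more than 10000 bp apart, the corresponding shares were 25.7%, 19.8%, 23.1% and 31.4%, each inside the interval for close pairs. The flanking site matched the partner it adjoined in 51.3% of cases around close pairs (48.1 to 54.5%) and in 52.9% around the more distant mixed neighbours. The flanking sites were nearer to close pairs, at a median of 65.4 kb, against 101 kb. The sets were divided by distance itself, so this difference may follow from the choice of pairs, which was not tested. The flanks of pairs within the same list were not examined.

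Members had neighbours of their own list about as often as other sites did at short range. Another p63-closed site lay within 10 kb of 14.0% of p63-closed members (68 of 485; 95% interval 11.1 to 17.4%) and of 13.6% of other p63-closed sites. Another opened site lay within 10 kb of 13.5% of opened members (66 of 489; 10.6 to 16.8%) and of 13.1% of other opened sites. Within 50 kb the shares were 43.7% (39.2 to 48.3%) and 41.8% (40.5 to 43.1%) for p63-closed sites, and 45.8% (41.3 to 50.3%) and 39.9% (38.8 to 41.1%) for opened sites. The intervals for opened sites within 50 kb did not overlap, by a small margin; in the other comparisons they did.

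Close pairs were present on 21 of the 22 autosomes, most of all on chromosome 8 (49 pairs), chromosome 3 (46) and chromosome 2 (44). On chromosome 8, 14.8% of p63-closed sites were in a close pair (45 of 304; 95% interval 11.0 to 19.3%), and on chromosome 18 13.4% (20 of 149; 8.40 to 20.0%), against 8.08% over all autosomes. These are also the chromosomes with the most opened sites per Mb, at 3.69 and 3.62. The next in density of opened sites, chromosomes 4, 21 and 13 with 3.19, 3.14 and 3.12 per Mb, had p63-closed shares of 6.30%, 6.67% and 8.08%. Over the 22 autosomes the share and the density of opened sites had a Pearson's r of 0.507 and a Spearman's rho of 0.347, given as a description, since the opened sites enter both measures. Among opened sites, the share in close pairs was 8.19% on chromosome 8 and 7.12% on chromosome 18, and both intervals (6.02 to 10.8% and 4.40 to 10.8%) held the autosomal 6.31%.

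Chromosome 19 had 0 close pairs. Its 61 p63-closed sites allow a share of up to 4.92% by 3 counts (exact interval 0 to 5.87%). Its 151 opened sites allow one of up to 1.99% by 3 counts (exact interval 0 to 2.41%). Chromosome 22 had 1 pair from 28 p63-closed and 95 opened sites. Both chromosomes have few p63-closed sites per Mb (1.05 and 0.835), while their opened sites per Mb (2.60 and 2.83) were within the range of the other autosomes. The interval of the p63-closed share held the autosomal share on 19 of the 22 autosomes, chromosomes 8, 18 and 19 being the exceptions. On chromosome 15, the autosome with fewer opened than p63-closed sites (160 against 191), 10.0% of opened sites were in close pairs (5.82 to 15.7%).

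**Figure D5:**
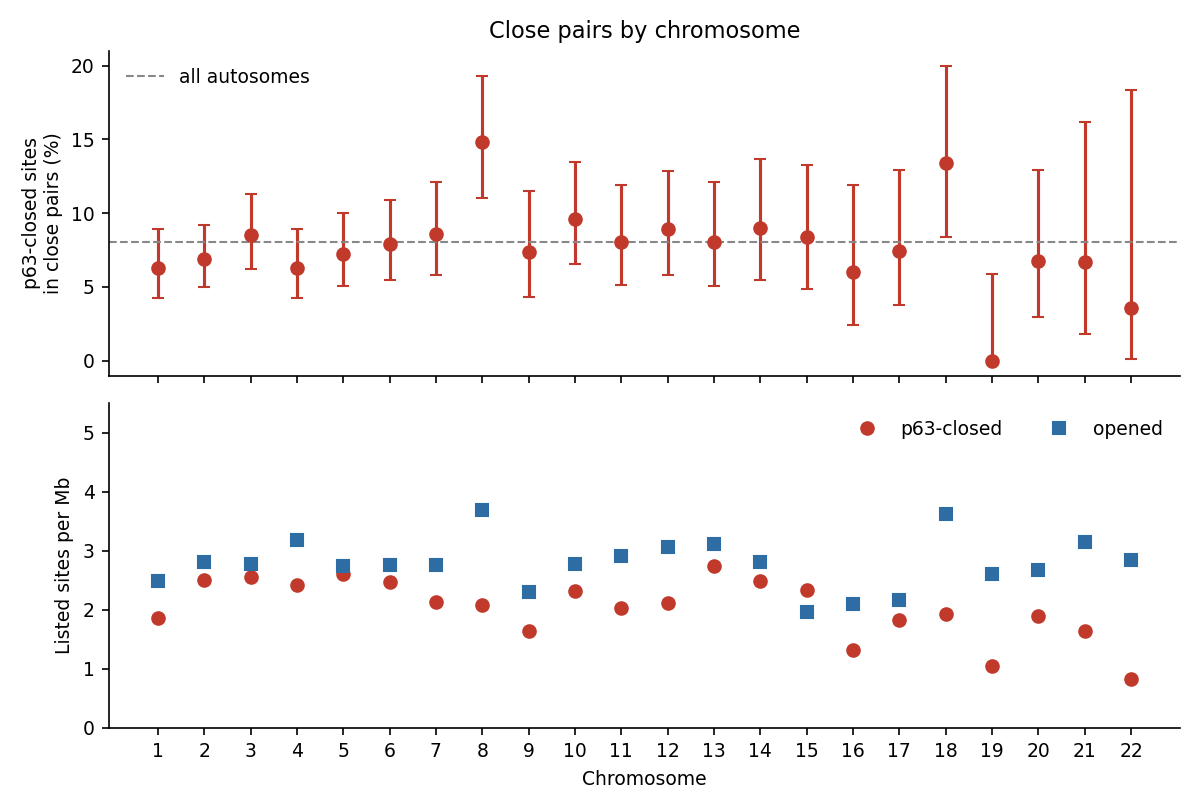
Upper panel: share of p63-closed sites that are in a close pair (%) by chromosome, with exact 95% binomial intervals as bars and the share over all autosomes, 8.08%, as a dashed line. Lower panel: p63-closed (circles) and opened (squares) sites per Mb between the first and last listed site; chromosomes 8 and 18 stand highest in opened sites.

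The spacing of the pairs was described without a comparison to that of all listed sites. Neighbouring linked groups started 3.62 Mb apart in the median (quartiles 1.17 and 7.72 Mb), and 19 of 433 neighbouring groups on a chromosome started within 100 kb of each other. Of the 398 windows of 1 Mb that held a pair, 305 held 1, 70 held 2 and 23 held 3 or more. After the window with the 6 pairs of the chromosome 12 group, 5 windows held 4 pairs each. Of these, chromosome 1 had a pair of windows, from 94000001 to 95000000 and from 201000001 to 202000000. The window on chromosome 3 ran from 193000001 to 194000000. Chromosome 10 had one from 30000001 to 31000000, and the last, from 19000001 to 20000000, was on chromosome 20. These windows were chosen after their values were seen. The chromosome 3 window had 4 p63-closed and 4 opened members among 9 p63-closed and 10 opened sites.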

How the data were processed

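The authors deposited 2 lists of ATAC-seq sites, whose numeric values are positions in bp, with no score. Per the submitters' processing notes, DESeq2, MACS2, SAMtools, Bowtie2 and FastQC were among the tools, and the builds were hg19 and GRCh37. The role, version or threshold of each, or any pooling, is not given in the sources used here. How a listed site was chosen therefore cannot be recomputed, and site widths depend on peak calling and merging that is not described.

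From the lists, each site's centre was taken as the rounded-down mean of start and end, and every p63-closed site was paired with each opened site on the same autosome whose centre was at most 10000 bp away. The pairing step was tested on 3 simulated sets with 50 to 200 planted pairs and found 100% of them. In those sets each site had at most 1 partner, and no planted pair had centres less than 3000 bp apart. Of the 522 pairs, 39 had centres 1 to 2 kb apart and 67 had centres 2 to 3 kb apart. The test therefore did not cover such close pairs or sites with several partners. Shares have exact (Clopper-Pearson) 95% intervals, and medians have order-statistic intervals. No test across sites and no random placement was made. Members, gene lists, motifs and rules were chosen with earlier results of these data known. The regions named are the 10 closest pairs, the 6 linked groups with most sites, the 5 pairs on either side of the limit and the 3 widest members of each list. No genome or gene annotation of hg19 was used, so gene lists and motifs were not applied. Computations used pandas 2.3.3, networkx 3.6.1, numpy 2.4.6, scipy 1.17.1 and matplotlib 3.10.9 under Python 3.11.15.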

Additional observations from a re-analysis of the deposited data

How the results depend on the processing

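The distance limit sets the counts by construction. With a limit of 5000 bp there were 211 pairs of 206 p63-closed and 207 opened sites, with a median centre distance of 2999 bp, median widths of 1262 bp (p63-closed) and 1374 bp (opened), and at least 1 number between those of the site names in 54.0%. With 20000 bp there were 999 pairs of 861 p63-closed and 871 opened sites, with a median distance of 9671 bp, a median p63-closed width of 1450 bp and at least 1 such number in 89.1%. With the limit of 10000 bp applied between nearest edges there were 612 pairs, and their centres were 6466 bp apart in the median. The other settings, which were chromosome X included (2 more pairs) and mutual nearest pairs alone (455), left counts within 1.5 times and medians and shares inside their intervals; of 35 comparisons, 21 did so and 14 did not. A stricter score, leaving out a replicate, and the settings for genes, gene starts and motifs could not be run, for want of scores, values per sample and an hg19 genome. No paired analysis was possible because neither list has a value for any sample. Depth is unknown, so a region absent from both lists is not shown to be unchanged.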
